A study of Mus musculus with 67 samples.

Results

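The genes described here are 33 mouse genes of glucose uptake and glycolysis, taken from a given list of gene symbols, with no threshold on a measured value. All 33 were among the 24530 genes counted in the larger of the study's experiments and among the 24421 gene symbols of its pilot experiment. They fall into 6 roles: glucose uptake (2 genes), the steps from hexokinase to aldolase (10), the steps from triose phosphates to pyruvate (9), lactate (4), pyruvate dehydrogenase and its kinases (5), and regulators (3). Glucose enters T cells through facilitative transporters and is split to pyruvate in the cytosol, with a yield of ATP and NADH. Pyruvate is then either reduced to lactate and exported or passed to pyruvate dehydrogenase in the mitochondria. Activated effector T cells are known for high glycolysis with lactate release, whereas regulatory T cells are known to rely more on oxidative metabolism.

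The study sorted CD4+ T cells from the hypothalamus and from the remaining brain ("rest brain") of mice fed a high-fat high-sugar (HFHS) diet or a standard diet (SD) and sequenced their mRNA in bulk. The larger experiment held 59 libraries of Balb/c and C57Bl/6J mice, each from cells of several pooled animals, with the diet begun at 6 weeks of age. Its cells were activated conventional T cells (Tconv; CD25-negative, Foxp3GFP-negative, high for CD44 and low for CD62L) and CD25-positive Foxp3GFP-positive regulatory T cells (Tregs). The pilot held 8 unreplicated libraries of hypothalamic cells. In the larger experiment all Balb/c mice were females and all C57Bl/6J mice were males, so strain and sex cannot be told apart. The labels do not state how long the diet lasted there, and so the age at sampling. Tconv of the hypothalamus had 4 libraries in each of Balb/c HFHS, Balb/c SD, C57Bl/6J HFHS and C57Bl/6J SD, and so had hypothalamic Tregs. Tconv of the rest brain had 3, 3, 3 and 4 libraries in the same order, and rest brain Tregs had 4, 2, 4 and 4. Libraries are named by the pool number in their label, and a pool often gave both cell types or both tissues. Total counts ran from 1724154 to 38482282 per library with a median of 17804196. In the pilot, Foxp3GFP Balb/c females (9 pooled per library, 16 weeks of HFHS diet or SD) gave CD4+CD25-CD44low to intermediate cells and Tregs, and obese ob/ob or wild-type (WT) C57Bl/6J females (7 pooled per library) gave CD4+CD25- and CD4+CD25++ cells.

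Libraries differed in quality before any comparison. Hypothalamic Tregs had 2109 to 7546 genes with more than 10 counts, and 9910 in C57Bl/6J SD pool 11_15, against 9028 to 10150 in hypothalamic Tconv, 10253 to 11534 in rest brain Tconv and 5438 to 9626 in rest brain Tregs. A count of 0 allows a level of up to 0.0780 CPM in the deepest and 1.74 CPM in the shallowest library. Of the 33 members, 3 to 18 had no count in a hypothalamic Treg library, while 1 to 4 had none in hypothalamic Tconv, 0 to 4 in rest brain Tconv and 1 to 9 in rest brain Tregs. In bulk samples, fewer cells of a type and less RNA per cell cannot be told apart. Hypothalamic Tregs of C57Bl/6J SD pool 11_15 went against their label: the summed level of 10 T cell markers was 200 CPM (a gene's counts relative to the library's total), and that of 10 endothelial markers 25842 CPM. Those of Balb/c SD pool 32_36 had 23107 CPM of 10 microglial markers beside 5857 CPM of T cell markers, with Cst3 as their most abundant gene. In all other hypothalamic Treg libraries the T cell markers summed to at least 6229 CPM. Counts of members called by edgeR in hypothalamic Tregs are given with and without these 2 libraries where they differ. For strain and for diet within hypothalamic Tregs they were 0 both ways.

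Treg markers (10 genes) summed to 545 to 986 CPM in hypothalamic Tconv and 627 to 1050 CPM in rest brain Tconv, against 388 to 8041 CPM in hypothalamic Tregs and 4980 to 7985 CPM in rest brain Tregs. Effector Tconv markers (8 genes) summed to 3843 to 6003 CPM in hypothalamic and 3443 to 7688 CPM in rest brain Tconv, and to at most 2068 CPM in hypothalamic and 1695 CPM in rest brain Tregs. Cell cycle genes (16) had medians of 748, 350, 493 and 382 CPM in hypothalamic Tconv, hypothalamic Tregs, rest brain Tconv and rest brain Tregs. In the same order, the highest sums were 316, 23107, 814 and 421 CPM for microglia, 564, 3792, 385 and 529 CPM for macrophages or monocytes (10 genes), and 293, 25842, 341 and 715 CPM for endothelial cells. They were 11.6, 246, 117 and 192 CPM for neurons (10), 14.3, 1091, 44.1 and 29.9 CPM for astrocytes (10), and 590, 813, 624 and 1258 CPM for oligodendrocytes (10, mostly Cnp). For erythroid cells (7 genes counted) they were 2.77, 1060, 7.44 and 38.5 CPM, for B cells (7) 12.3, 1517, 112 and 133 CPM, and for CD8 T and NK cells (8) 892, 189, 891 and 111 CPM. The part of any such cells in the results on the 33 genes was not tested.

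The level of the list in a library, the mean of log2(CPM + 1) over the 33 genes, was 5.85 ± 0.17 (SD, n = 16) in hypothalamic Tconv, 4.28 ± 1.08 (n = 16; mean 4.23 without the 2 libraries) in hypothalamic Tregs, 5.5 ± 0.55 (n = 13) in rest brain Tconv and 5.98 ± 0.63 (n = 14) in rest brain Tregs. The gap of hypothalamic Tregs to hypothalamic Tconv, -1.57, depends on the 1 added to each CPM, and was -2.60 with 0.1 and -0.66 with 10 in its place. That to rest brain Tregs, -1.70, was -2.56 with 0.1. The SD of the list level was lowest in hypothalamic Tconv, where the 33 genes together took 8662 to 10665 CPM. Rest brain Tconv split by strain and diet: the 7 C57Bl/6J libraries lay at 5.60 to 6.35, the Balb/c SD libraries at 5.41, 5.25 and 5.58, and the Balb/c HFHS libraries at 4.53, 4.78 and 4.74. In hypothalamic Tregs of Balb/c mice the HFHS libraries lay at 4.87 to 5.20 and the SD libraries at 2.90 to 3.90. Those groups also differed in depth of detection, with 4856 to 6585 against 2154 to 4265 genes over 10 counts and with 8 to 11 against 11 to 18 members at 0, and the part of detection was not tested.

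**Figure D1:**
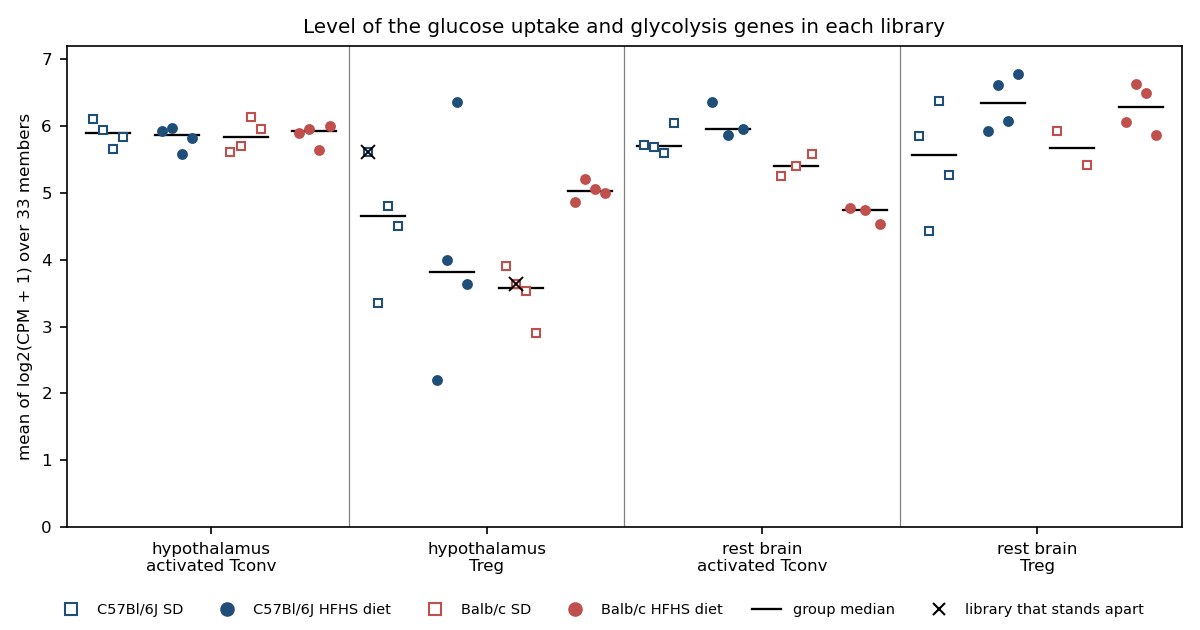
Mean of log2(CPM + 1) over the 33 genes (vertical axis) in each of 59 libraries, by tissue and cell type (horizontal axis), strain (colour) and diet (filled circles HFHS, open squares SD), with bars for group medians and crosses on the 2 libraries that stand apart. The Balb/c HFHS libraries of rest brain Tconv lie at 4.53 to 4.78, below the other Tconv libraries, and hypothalamic Tregs spread from 2.21 to 6.36.

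Levels between genes are compared per transcript length, as TPM (counts over transcript length, relative to their sum in the library). The most abundant member in every cell population was Gapdh, the glyceraldehyde-3-phosphate dehydrogenase, with median TPM of 1718 in hypothalamic Tconv, 1792 in hypothalamic Tregs, 1242 in rest brain Tconv and 1867 in rest brain Tregs. Medians in hypothalamic Tconv were 856 TPM for Txnip, whose protein removes glucose transporters from the membrane, 786 TPM for Eno1 (enolase), 760 TPM for Ldha (lactate dehydrogenase), 664 TPM for Aldoa (aldolase) and 377 TPM for Pkm (pyruvate kinase). The transporters were far lower, at 13.7 TPM for Slc2a1 (GLUT1) and 13 TPM for Slc2a3 (GLUT3).

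Of the genes that encode the same step, 1 usually carried most of the TPM. Hk1 made up a median of 98.4% of Hk1 and Hk2, the hexokinases, in hypothalamic Tconv, 94.9% in rest brain Tconv and 99.5% in rest brain Tregs. Pfkp, the platelet form of phosphofructokinase, made up 78.0% of its family beside Pfkl and Pfkm in hypothalamic Tconv, 75.7% in rest brain Tconv and 64.3% in rest brain Tregs. Aldoa made up at least a median of 99.4% against Aldoc in all 4 populations, and Eno1 92.8% in rest brain Tregs and at least 98.3% elsewhere against Eno2 and Eno3. Ldha made up 92.2% against Ldhb in hypothalamic Tconv, 80.2% in hypothalamic Tregs, 87.7% in rest brain Tconv and 85.7% in rest brain Tregs. In single hypothalamic Treg libraries the Ldha share ran from 0% to 100%. Among the kinases that inhibit pyruvate dehydrogenase, Pdk3 made up 79.8% in hypothalamic and 71.3% in rest brain Tconv and 53.4% in rest brain Tregs. In single rest brain Treg libraries the Pdk3 share ran from 0% to 98.2%. For these 3 families no share is given in hypothalamic Tregs, where Hk1 had more than 10 counts in 8 of 16 libraries, Pfkp in 11, Pdk1 in 7 and Pdk3 in 5, and single libraries ran from 0% to 100%. Pkm was counted almost wholly as 1 of its 2 listed transcripts, NM_011099, at medians of 93.9% to 100%.

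Detection set limits for several members. In hypothalamic Tregs, 14 of 16 libraries had no count of Pfkm, 13 none of Pfkfb4, 12 none of Hk2, 11 none of Pdk3 or Slc16a3 (a lactate exporter), 10 none of Slc16a1 (a lactate and pyruvate carrier), 9 none of Slc2a1, Aldoc or Pdk2 and 8 none of Myc or Bpgm. Aldoa, Gapdh, Pgk1, Eno1, Pkm, Hif1a and Txnip had counts in all 16 of them. Hk2 was low throughout, at most 9.42 CPM in hypothalamic Tconv, 28.3 CPM in hypothalamic Tregs, 7.80 CPM in rest brain Tconv and 6.52 CPM in rest brain Tregs. Eno2, the neuronal enolase, had no count in 15 of 16 hypothalamic Tconv and 14 of 16 hypothalamic Treg libraries.

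The first question was whether Tregs and Tconv of the same tissue differed. Genes were tested with edgeR across all genes that passed a count filter, and the threshold was an adjusted p under 0.05. In the rest brain 10 of 33 members were higher in Tregs and 0 were lower, where 3.70% of 13956 genes were higher and 12% lower. The median log2 fold change was 0.57 over the members and -0.35 over all genes, and 17 members had an unadjusted p under 0.05, of 3664 genes. All 9 genes from triose phosphates to pyruvate had positive log2 fold changes there, 3 of them past the threshold.

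For glucose uptake, Slc2a3 ran from 14.4 through a median of 32 to 63.7 CPM in rest brain Tconv and from 0.479 through 102 to 256 CPM in Tregs. The ranges overlapped, with the lowest Treg level in a C57Bl/6J SD pool, and the log2 fold change was 1.57 (SE 0.49, adjusted p = 0.0268). That call was lost without Tconv Balb/c HFHS pool 47_25 (adjusted p = 0.0531) or 15_21 (0.0534) or Treg C57Bl/6J SD pool 62_66 (0.0913). Slc2a1 had 0.875, 31.1 and 76.9 CPM in Tconv and 0, 35.4 and 173 CPM in Tregs and did not pass.

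Between hexokinase and aldolase, Gpi1, the glucose-6-phosphate isomerase, had a lowest, median and highest level of 40.8, 221 and 335 CPM in rest brain Tconv and of 268, 392 and 609 CPM in Tregs (log2 fold change 1.19, SE 0.22, adjusted p = 0.000596). Pfkp had 29.2, 137 and 292 CPM in Tconv and 51.3, 265 and 594 CPM in Tregs (0.94, SE 0.25, adjusted p = 0.00872). Aldoa had 181, 614 and 817 CPM against 607, 845 and 1106 CPM (0.56, SE 0.13, adjusted p = 0.00401). For each of these genes the ranges overlapped, and the lowest Tconv values belonged to Balb/c libraries.

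From triose phosphates to pyruvate, Pkm had 62.4, 377 and 1015 CPM in rest brain Tconv and 345, 1259 and 1746 CPM in Tregs (log2 fold change 1.94, SE 0.28, adjusted p = 2.32e-05). Gapdh had 480, 1260 and 1549 CPM in Tconv and 1226, 1679 and 2364 CPM in Tregs (0.57, SE 0.10, adjusted p = 0.000279). Eno3, the muscle enolase, had 0.109, 8.11 and 15 CPM in Tconv and 0, 48.0 and 205 CPM in Tregs (3.04, SE 0.76, adjusted p = 0.00622). Only 1 Treg library, from a C57Bl/6J SD pool, had no Eno3 count, and the ranges of all 3 genes overlapped.

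For lactate, Ldhb, whose subunit favours the turn from lactate to pyruvate, had 38.4, 66.7 and 101 CPM in rest brain Tconv and 70.4, 139 and 279 CPM in Tregs (log2 fold change 0.95, SE 0.21, adjusted p = 0.00266). Ldha had 364, 711 and 1013 CPM in Tconv and 620, 1039 and 1761 CPM in Tregs (0.44, SE 0.14, adjusted p = 0.0343). The Ldha call was lost without any 1 of 6 libraries, namely Tconv C57Bl/6J HFHS 38_42 (adjusted p = 0.0568), C57Bl/6J SD 11_15 (0.0523), Balb/c HFHS 47_25 (0.084) and 15_21 (0.0815), and Tregs of Balb/c HFHS 47_25 (0.0501) and C57Bl/6J SD 67_71 (0.057). Of the regulators, Hif1a, which encodes the oxygen-regulated subunit of a factor that raises glycolysis genes, had 96.8, 182 and 298 CPM in Tconv and 152, 403 and 636 CPM in Tregs (1.1, SE 0.17, adjusted p = 6.55e-05). Txnip (536, 1504 and 2205 CPM in Tconv; 425, 1782 and 2856 CPM in Tregs) and Myc (51.6, 106 and 226 CPM; 0, 96.3 and 179 CPM) did not pass. With the pool as a block, where 1767 of 13956 genes were called, 6 of the 10 members remained past the threshold (Pkm, Hif1a, Gapdh, Gpi1, Pfkp and Aldoa, adjusted p 0.000733 to 0.0275), while Eno3 (0.102), Ldha (0.0748), Ldhb (0.0584) and Slc2a3 (0.316) did not.

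The cell type difference in the rest brain was then fitted within each strain, a choice made after seeing the data. In Balb/c mice alone 14 of 33 members were called, all higher in Tregs, where 18.5% of 12961 genes were called. In C57Bl/6J mice alone 3 of 32 tested members were called, Pkm, Ldhb and Hif1a, all higher in Tregs, where 3.56% of 11470 genes were called. Pkm in Balb/c mice ran from 62.4 through 113 to 208 CPM in Tconv and from 1031 through 1259 to 1470 CPM in Tregs, with no overlap (log2 fold change 3.18, SE 0.20, adjusted p = 1.64e-07). In C57Bl/6J mice it ran from 377 through 601 to 1015 CPM in Tconv and from 345 through 1314 to 1746 CPM in Tregs, with overlap (1.03, SE 0.27, adjusted p = 0.0444). Ldhb (1.16, adjusted p = 0.0213) and Hif1a (0.92, adjusted p = 0.0302) were the others called in C57Bl/6J mice.

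Whether the cell type difference itself differed between strains was tested as an interaction, also added after seeing the data. In the rest brain 4.93% of genes were called, and of the members Gpi1 (1.69, SE 0.30, adjusted p = 0.000481), Aldoa (0.76, SE 0.21, adjusted p = 0.026), Eno1 (1.37, SE 0.22, adjusted p = 0.000209), Pkm (2.12, SE 0.36, adjusted p = 0.000352) and Txnip (1.49, SE 0.36, adjusted p = 0.012) were. A positive value means that the log2 difference of Tregs minus Tconv was higher in Balb/c than in C57Bl/6J mice. For Eno1 (-0.19, adjusted p = 0.776) and Txnip (-0.36, adjusted p = 0.743) that difference was negative in C57Bl/6J mice alone and did not pass. For Gpi1, Aldoa, Eno1 and Pkm the Balb/c Tconv libraries had the lowest median of the 4 combinations of strain and cell type in the rest brain, and for Txnip too, though Txnip in C57Bl/6J Tregs reached down to 425 CPM.

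In the hypothalamus, 0 of 32 tested members were higher in Tregs and 1 was lower, where 0.549% of 11283 genes were higher and 13.3% lower, so the count lies under the background. The median log2 fold change was -0.17 over the members and -0.96 over all genes. The 1 call was Pfkm, the muscle phosphofructokinase, at 0.0548, 4.41 and 17.3 CPM in Tconv, against 0 in 14 of 16 Treg libraries, 0.357 CPM in C57Bl/6J SD pool 11_15 and 129 CPM in Balb/c SD pool 32_36. Through pool 32_36 the mean of Pfkm was higher in Tregs (8.08 CPM) than in Tconv (6.89 CPM), against the direction of the call. The fitted log2 fold change of Pfkm, -6.76 (SE 2.19, adjusted p = 0.0314), depends on how the zeros are handled. The Pfkm call was lost without any 1 of 6 Treg libraries, Balb/c HFHS 16_20 (adjusted p = 0.0539), 26_31 (0.0516) and 11_14 (0.0532) and C57Bl/6J HFHS 77_80 (0.0568), 33_37 (0.055) and 06_10 (0.0581). It was also lost with no filter on counts (0.0506) and in Balb/c mice alone (-2.99, adjusted p = 0.904).

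Unadjusted p under 0.05 was also reached by Eno1 (-0.70, adjusted p = 0.0576), Txnip (-1.18, adjusted p = 0.0883) and Myc (-4.28, adjusted p = 0.174), all with lower fitted levels in hypothalamic Tregs. Of all genes, at least the 0.549% called higher and the 13.3% called lower reached it. Without the 2 libraries that stand apart, a choice made after seeing the data, 3 members were called, all lower, where 1999 of 11145 genes were called in either direction: Pfkm, Slc2a1 (-9.76, adjusted p = 0.00517) and Eno1 (-0.70, adjusted p = 0.0424). With the pool as a block 10 of 32 were called, all lower, where 5543 of 11283 genes were called, so the members' share lay below the background. Among the 10 were Pfkm (-7.53, adjusted p = 0.000163), Slc2a1 (-9.80, adjusted p = 0.000248) and Hk2 (-6.23, adjusted p = 0.00245). Mean levels of Slc2a1 went the other way, at 90.8 CPM in Tregs and 35.5 CPM in Tconv, while the medians were 0 and 27.7 CPM. The means of Pfkm did so too, as given above. Over all alternatives and left-out libraries the count ran from 0 to 19. The highest came with limma-voom, which called more genes in all than the fit with the pool as a block, as given under the processing. The cause was not tested.

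In Balb/c mice hypothalamic Slc2a1 ran from 22.9 to 55.3 CPM in 8 Tconv libraries, while 6 of 8 Treg libraries had none and the others 0.026 and 0.0977 CPM. In C57Bl/6J mice it ran from 10.6 to 84.4 CPM in Tconv, and in Tregs from 0 to 1094 CPM, with 358 CPM in HFHS pool 33_37 and 1094 CPM in SD pool 11_15, a library with endothelial markers. The other 6 had at most 0.0616 CPM, under 3 counts, which cannot be told from 0. In Balb/c mice alone 14% of genes and 2 members were called, Slc2a1 (-10.83, SE 1.66, adjusted p = 0.000601) and Hk2 (-7.28, SE 1.36, adjusted p = 0.00105), neither with overlap between cell types. The C57Bl/6J libraries alone gave 3.73% of genes and 1 member called, Pfkm (-7.66, adjusted p = 0.0492). The test of strain against cell type called 2.07% of genes and 1 member, Slc2a1 (-13.29, SE 2.64, adjusted p = 0.0127), and no member without the 2 libraries.

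Whether the cell type difference differed between tissues was tested over all 59 libraries. The test called 9.48% of genes and 1 member, Pkm (-1.55, SE 0.51, adjusted p = 0.039). DESeq2, with 1507 genes called in place of 1399, also called Eno1 (-1.04, adjusted p = 0.0308) and Pfkm (-5.76, adjusted p = 0.0213), as did edgeR without the 2 libraries (-1.04, adjusted p = 0.0279, and -10.59, adjusted p = 0.00019), with 1361 of 14511 genes called. Pkm had medians of 714 CPM in hypothalamic Tconv and 825 CPM in hypothalamic Tregs, against 377 CPM and 1259 CPM in the rest brain.

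**Figure D2:**
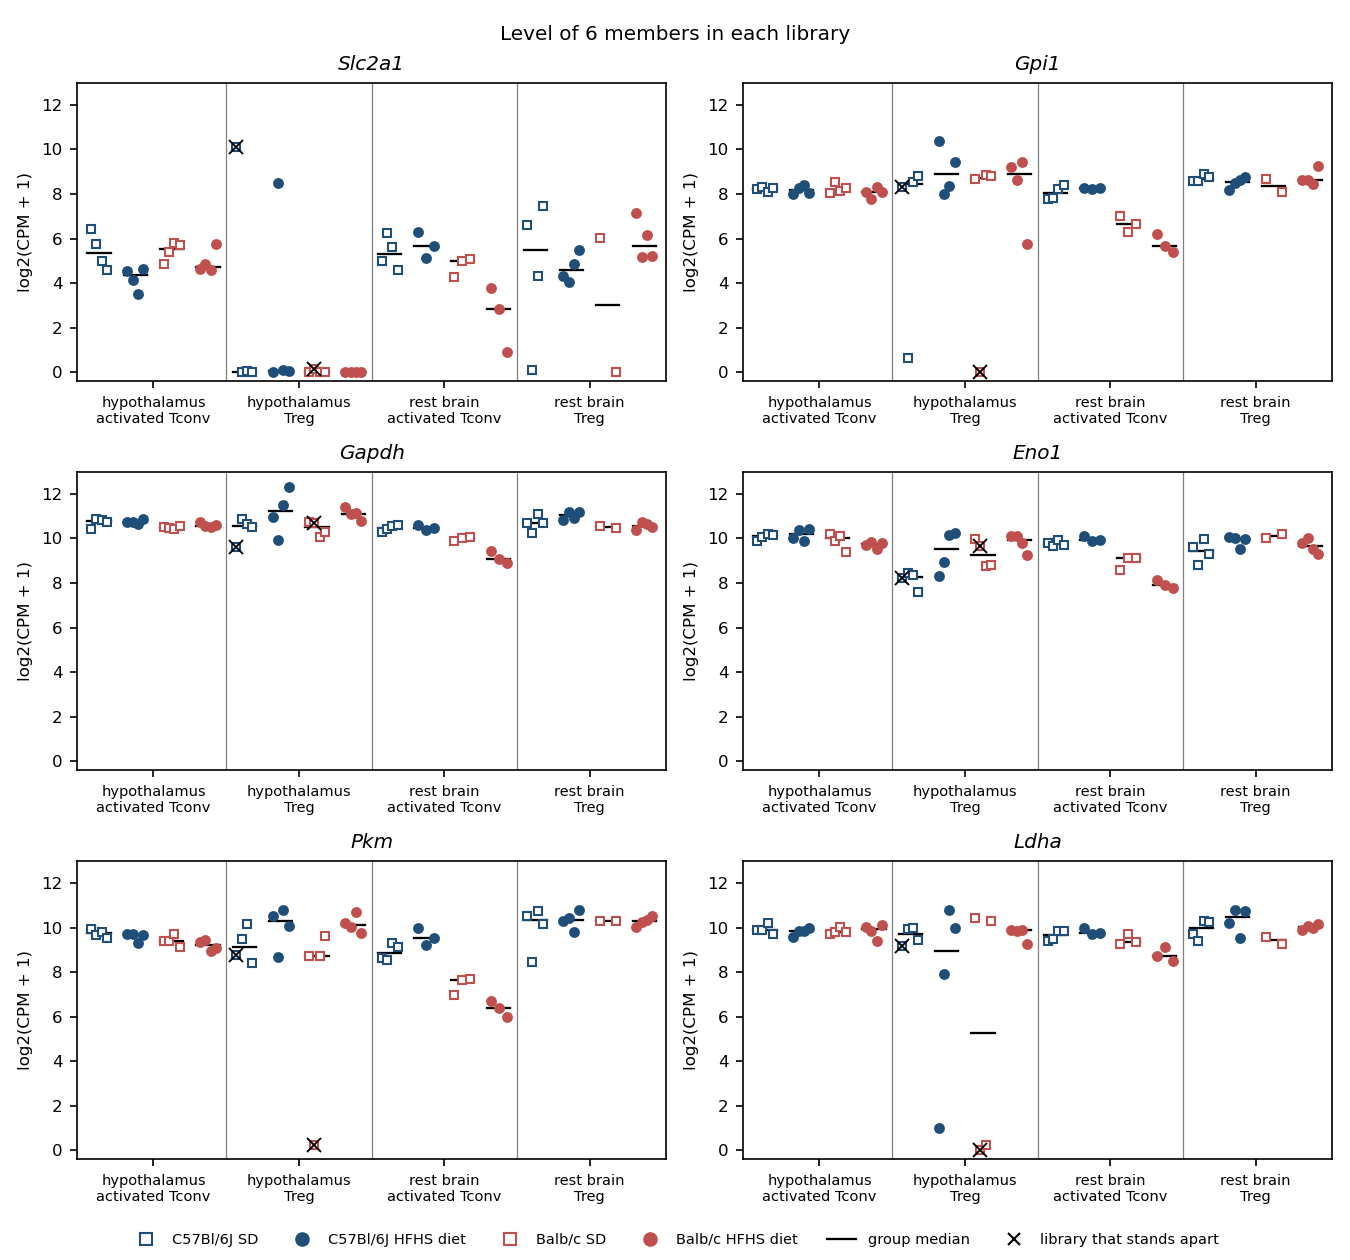
Level of Slc2a1, Gpi1, Gapdh, Eno1, Pkm and Ldha as log2(CPM + 1) (vertical axes) in each of 59 libraries, by tissue and cell type, strain (colour) and diet (filled circles HFHS, open squares SD), with bars for group medians and crosses on the 2 libraries that stand apart. Pkm in Balb/c Tconv of the rest brain (62.4 to 208 CPM) lies below every C57Bl/6J library of that population (377 to 1015 CPM).

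The tissue comparison asked whether hypothalamic T cells differ from those of the rest brain. In Tconv 11 of 33 members were higher in the hypothalamus and 1 was lower, where 5.60% of 12833 genes were higher and 11.8% lower. The median log2 fold change was 0.29 over the members and -0.11 over all genes. Between hexokinase and aldolase 5 of 10 genes were called, all higher. Hk1 had 62.7, 87.2 and 169 CPM in hypothalamic Tconv and 7.44, 48.5 and 138 CPM in rest brain Tconv (1.15, SE 0.25, adjusted p = 0.00173). Gpi1 (220, 289 and 371 CPM in the hypothalamus; 0.82, SE 0.19, adjusted p = 0.00278), Pfkp (204, 283 and 334 CPM; 1.01, SE 0.19, adjusted p = 0.000477) and Aldoa (581, 737 and 908 CPM; 0.38, SE 0.11, adjusted p = 0.0105) were also higher. Pfkl, the liver form, had 13.8, 63.6 and 122 CPM in the hypothalamus and 0.985, 25.5 and 113 CPM in the rest brain (1.23, SE 0.39, adjusted p = 0.0258). All of these ranges overlapped between tissues.

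From triose phosphates to pyruvate, Pkm had 500, 714 and 990 CPM in hypothalamic Tconv (log2 fold change 1.24, SE 0.21, adjusted p = 0.000171), Eno1 678, 993 and 1381 CPM against 217, 817 and 1104 CPM (0.70, SE 0.12, adjusted p = 0.000293) and Gapdh 1358, 1562 and 1896 CPM (0.50, SE 0.10, adjusted p = 0.000656). Eno2 was the lower gene: 15 of 16 hypothalamic Tconv libraries had none and C57Bl/6J HFHS pool 33_37 had 12.8 CPM, while the rest brain ran from 0 through 0.161 to 6.96 CPM, with the highest level in a Balb/c SD pool (-4.63, SE 1.5, adjusted p = 0.0297). That call was lost without any 1 of 9 libraries, most clearly without rest brain Balb/c SD pool 37_41 (adjusted p = 0.421) and otherwise with adjusted p of 0.05 to 0.0629.

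For the other roles, Ldha had 666, 921 and 1160 CPM in hypothalamic Tconv (log2 fold change 0.32, SE 0.10, adjusted p = 0.0252), Pdha1, a subunit of pyruvate dehydrogenase, 104, 155 and 250 CPM against 40.5, 82.6 and 186 CPM (0.64, SE 0.15, adjusted p = 0.00354) and Txnip 1385, 1871 and 3081 CPM (0.52, SE 0.16, adjusted p = 0.022). Slc2a1 (10.6, 27.7 and 84.4 CPM), Slc2a3 (18.6, 41.6 and 111 CPM) and Hif1a (87.2, 156 and 279 CPM) did not pass. Besides that of Eno2, leaving out 1 rest brain library ended 3 calls. They were Ldha without Balb/c HFHS 47_25 (adjusted p = 0.0624), Pfkl without Balb/c SD 37_41 (0.0534) or 32_36 (0.0559) or Balb/c HFHS 15_21 (0.0608) or 16_20 (0.0585), and Txnip without Balb/c HFHS 47_25 (0.0554), 15_21 (0.051) or 16_20 (0.0545). With the pool as a block, where 9 pools carry both tissues and 115 genes were called in place of 2233, 1 member remained, Pkm (1.33, adjusted p = 0.0488). The other 11 then had adjusted p from 0.0513 (Eno1) to 0.344 (Ldha).

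Split by strain after seeing the data, the tissue difference in Tconv called 11 members higher and 1 lower in Balb/c mice, where 25.5% of 11813 genes were called, and 0 of 32 tested members in C57Bl/6J mice, where 0.00871% of 11486 genes were called. The edgeR fit in C57Bl/6J mice had 5 members with unadjusted p under 0.05, of 687 genes, the smallest for Eno1 (0.30, adjusted p = 0.409), Gapdh (0.28, adjusted p = 0.431) and Pkm (0.45, adjusted p = 0.433). In Balb/c mice Pkm ran from 500 through 659 to 845 CPM in the hypothalamus and from 62.4 through 113 to 208 CPM in the rest brain (2.12, SE 0.17, adjusted p = 7.03e-07). Gpi1 ran from 220 through 275 to 371 CPM and from 40.8 through 75.6 to 130 CPM (1.65, SE 0.18, adjusted p = 4.17e-06). Neither gene overlapped between the tissues. The lower gene was again Eno2, with no count in the 8 Balb/c hypothalamic libraries (adjusted p = 0.00396).

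The difference between strains in the tissue effect was tested in Tconv as an added interaction that called 10.3% of genes. Of the members it called Hk1 (1.61, SE 0.38, adjusted p = 0.00461), Gpi1 (1.64, SE 0.21, adjusted p = 1.47e-05), Pfkl (2.28, SE 0.60, adjusted p = 0.0115), Pfkp (1.30, SE 0.28, adjusted p = 0.00212), Eno1 (0.85, SE 0.18, adjusted p = 0.00192), Pkm (1.72, SE 0.23, adjusted p = 3.5e-05) and Txnip (1.06, SE 0.25, adjusted p = 0.00405). All 7 had the larger excess of hypothalamic over rest brain levels in Balb/c mice. Neither this interaction nor the fits in single strains had the pool as a block, which left 1 of the 12 tissue calls in Tconv.

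In Tregs 0 of 33 members were higher in the hypothalamus and 1 was lower, where 0.0873% of 12602 genes were higher and 5.51% lower, so the members lay near the background. The lower gene was Eno2, with counts in 2 of 16 hypothalamic libraries (0.026 and 6.39 CPM) and in 8 of 14 of the rest brain, up to 168 CPM in C57Bl/6J SD pool 11_15 (-8.16, SE 1.92, adjusted p = 0.0147, and 0.0542 without rest brain Treg Balb/c SD pool 42_46). Medians were -0.52 over the members and -0.88 over all genes. In Balb/c mice alone 8.25% of genes and 2 members were called, Slc2a1 (-11.41, adjusted p = 0.0339) and Eno2 (-9.77, adjusted p = 0.0339), both lower. For C57Bl/6J mice alone edgeR called 0% of genes and 0 members, with 2 members and 415 genes at an unadjusted p under 0.05, and the smallest p were those of Eno2 (-6.18, adjusted p = 0.976), Pdk1 (-4.66, adjusted p = 1) and Eno1 (-0.74, adjusted p = 1). The strain and tissue interaction in Tregs called 0% of genes and 0 members with edgeR, with 3 members and 1475 genes at an unadjusted p under 0.05, the smallest for Slc2a1 (-13.22, adjusted p = 0.0722). Without the 2 libraries that stand apart, 3 members were lower in hypothalamic Tregs, Eno2, Pfkm (-9.17, adjusted p = 0.00618) and Slc2a1 (-10.30, adjusted p = 0.0258), where 1222 of 12141 genes were called, and with the pool as a block no member and no gene was called. DESeq2 and limma-voom called more members and more genes than edgeR, as given under the processing.

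The strains differed most in Tconv of the rest brain. There 0 of 33 members were higher in Balb/c than in C57Bl/6J mice and 12 were lower, where 12.2% of 12287 genes were higher and 11.3% lower. The median log2 fold change was -0.58 over the members and -0.03 over all genes. For glucose uptake, Slc2a1 in Balb/c HFHS pools 47_25, 15_21 and 16_20 had 0.875, 12.8 and 6.20 CPM, in the 3 Balb/c SD pools 18.3 to 33 CPM, and in the 7 C57Bl/6J libraries 23.3 to 76.9 CPM (-1.49, SE 0.53, adjusted p = 0.0482). Only SD libraries of Balb/c mice overlapped with C57Bl/6J mice. This call was lost in 8 of 13 fits that left out 1 library (adjusted p 0.0584 to 0.112).

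Between hexokinase and aldolase 5 of 10 genes were lower in Balb/c mice. Gpi1 had 40.8, 72.5 and 49.5 CPM in Balb/c HFHS pools 47_25, 15_21 and 16_20, 78.7, 130 and 99.9 CPM in Balb/c SD pools 37_41, 32_36 and 42_46, and 221 through 302 to 335 CPM in C57Bl/6J mice (log2 fold change -1.64, SE 0.19, adjusted p = 1.95e-05). Every Balb/c library lay below every C57Bl/6J library. Pfkp (29.2, 71.5 and 116 CPM in Balb/c, 137, 180 and 292 CPM in C57Bl/6J; -1.24, adjusted p = 0.00165) and Aldoa (181, 414 and 553 CPM against 614, 743 and 817 CPM; -0.66, adjusted p = 0.00468) did not overlap either. Hk1 (7.44, 21.1 and 48.5 CPM against 44.5, 63.7 and 138 CPM; -1.59, SE 0.35, adjusted p = 0.00298) and Pfkl (0.985, 7.69 and 32 CPM against 21.6, 49.1 and 113 CPM; -2.30, SE 0.58, adjusted p = 0.00716) overlapped slightly.

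From triose phosphates to pyruvate 4 of 9 genes were lower. Pkm had 62.4, 102 and 83.3 CPM in the Balb/c HFHS pools and 198, 124 and 208 CPM in the Balb/c SD pools, in the order given for Gpi1, against 377 through 601 to 1015 CPM in C57Bl/6J mice (log2 fold change -2.02, SE 0.25, adjusted p = 3.32e-05). Eno1 had 217, 279 and 239 CPM and then 556, 384 and 554 CPM in these pools, against 817 through 950 to 1104 CPM (-1.11, SE 0.16, adjusted p = 8.43e-05). Both genes were lowest in Balb/c HFHS pool 47_25. Gapdh (480, 823 and 1064 CPM against 1260, 1437 and 1549 CPM; -0.61, adjusted p = 0.00139) and Tpi1, the triosephosphate isomerase (32.9, 61.4 and 93.1 CPM against 105, 136 and 188 CPM; -0.98, adjusted p = 0.00217), were lower too. None of the 4 lactate genes passed, with Ldha at 364 to 833 CPM in Balb/c and 674 to 1013 CPM in C57Bl/6J mice.

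Pdk1, the pyruvate dehydrogenase kinase that responds to hypoxia, was lower in Balb/c Tconv of the rest brain (4.71, 9.47 and 33.2 CPM against 24.5, 54.5 and 106 CPM; -2.08, SE 0.43, adjusted p = 0.00164). Txnip (536, 893 and 1857 CPM against 1292, 1757 and 2205 CPM; -0.61, SE 0.19, adjusted p = 0.0264) was lower as well. Its call was lost without C57Bl/6J HFHS 38_42 (adjusted p = 0.0504) or 77_80 (0.0623), Balb/c HFHS 47_25 (0.0647) or 16_20 (0.0641), or Balb/c SD 32_36 (0.0588). Hif1a and Myc did not pass, and Myc in Balb/c SD pools (156 to 226 CPM) reached above the C57Bl/6J range (92.5 to 159 CPM) while Balb/c HFHS pools lay below it (51.6 to 91.6 CPM).

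Of the other features given here for rest brain Tconv libraries, only Tmsb4x did not overlap between strains. T cell markers (10 of 10 counted in every library, Cd3g the most abundant) summed to 8191, 8775 and 8907 CPM in Balb/c HFHS, 9131 to 9518 CPM in Balb/c SD and 9055 to 11133 CPM in C57Bl/6J libraries. Tmsb4x took 36574 to 60102 CPM in Balb/c and 17914 to 27714 CPM in C57Bl/6J libraries, with 60102 CPM in Balb/c HFHS pool 47_25. Microglial markers were 140 to 814 CPM in Balb/c and 126 to 215 CPM in C57Bl/6J libraries, the highest in Balb/c SD pool 42_46, and effector Tconv markers 5751 to 7688 CPM and 3443 to 7330 CPM. Their part in the difference of the glycolysis genes was not tested. All 6 Balb/c pools also lie apart from C57Bl/6J pools by sex, and the labels name no batch.

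In hypothalamic Tconv 1 of 32 tested members was higher in Balb/c mice and 1 was lower, where 0.993% of 10875 genes were higher and 1.1% lower. Pgam1, the phosphoglycerate mutase, had 294, 319, 169 and 249 CPM in Balb/c HFHS pools 16_20, 11_14, 15_21 and 26_31 and 254, 187, 246 and 234 CPM in Balb/c SD pools 37_41, 32_36, 42_46 and 06_10. In C57Bl/6J mice it ran from 93.7 through 129 to 222 CPM (log2 fold change 0.82, SE 0.18, adjusted p = 0.0193). The strains overlapped only through Balb/c pools 15_21 and 32_36 and C57Bl/6J HFHS pool 06_10. Pdk1 ran from 1.46 through 9.58 to 24.0 CPM in Balb/c and from 15.3 through 47.7 to 129 CPM in C57Bl/6J mice (-2.25, SE 0.57, adjusted p = 0.0473). The Pdk1 call was lost in 13 of 16 fits that left out 1 library (adjusted p 0.055 to 0.108) and kept without C57Bl/6J HFHS 72_76, C57Bl/6J SD 67_66 or Balb/c SD 42_46. Pkm (500, 659 and 845 CPM in Balb/c, 633, 817 and 990 CPM in C57Bl/6J) and Gpi1 (220 to 371 CPM against 254 to 341 CPM) did not show the strain gap of the rest brain.

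In Tregs the strains differed at few genes. In the hypothalamus 0.0389% of 7715 genes and 0 of 26 tested members were called by edgeR, with 0 members and 292 genes at an unadjusted p under 0.05, 0 members by DESeq2 and 0 by limma-voom. The smallest p were those of Eno1 (0.62), Bpgm (-6.42) and Pfkfb3 (2.65), each with an adjusted p of 1. The 7 untested members were Slc2a1, Hk2, Pfkm, Pfkfb4, Eno2, Slc16a1 and Pdk2. In the rest brain 0.299% of 11711 genes and 0 of 32 tested members were called by edgeR, with 5 members and 1045 genes at an unadjusted p under 0.05. There 1 member of 300 genes was called by DESeq2 (Gapdh, -0.41, adjusted p = 0.0439) and 2 of 123 by limma-voom (Gapdh, -0.46, adjusted p = 0.0147, and Txnip, 1.20, adjusted p = 0.00362). Gapdh ran from 1317 to 1685 CPM in Balb/c and from 1226 to 2364 CPM in C57Bl/6J Tregs, and Txnip from 1646 to 2856 CPM and from 425 to 2423 CPM. By edgeR the smallest p were those of Gapdh (-0.41, adjusted p = 0.218), Txnip (0.84, adjusted p = 0.255) and Pdk1 (-2.62, adjusted p = 0.284), and the strains overlapped for Gapdh and Txnip.

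The diet comparison, the study's main question, called no member with edgeR in any of the 4 populations when both strains were fitted together. In hypothalamic Tconv 0% of 10875 genes were called, and 2 of 32 tested members had an unadjusted p under 0.05, Slc2a1 and Pfkl, of 406 genes. DESeq2 and limma-voom called 0 members there. Slc2a1 had 22.9, 24.2, 27.6 and 53.9 CPM in Balb/c HFHS and 27.9, 40.9, 51.4 and 55.3 CPM in Balb/c SD libraries, and 10.6, 16.8, 22.4 and 24.0 CPM in C57Bl/6J HFHS and 22.9, 31.2, 52.5 and 84.4 CPM in C57Bl/6J SD libraries (log2 fold change -0.87, SE 0.35, adjusted p = 1). In both strains the diet groups overlapped. Pfkl had 24.8, 42.2, 52.9 and 56.8 CPM in Balb/c HFHS and 64.4, 65.9, 66.8 and 99.4 CPM in Balb/c SD libraries, which did not overlap, and overlapped in C57Bl/6J mice (-0.66, SE 0.31, adjusted p = 1). The third smallest p was that of Txnip (0.26, adjusted p = 1).

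In hypothalamic Tregs 0% of 7715 genes were called by edgeR and 0 of 26 tested members, with 3 members and 213 genes at an unadjusted p under 0.05, 3 members and 180 genes by DESeq2 and 0 members by limma-voom. Myc had 119, 90.4, 59.2 and 318 CPM in Balb/c HFHS libraries and 0, 0, 0 and 0.0591 CPM in Balb/c SD libraries, so the diet groups did not overlap. In C57Bl/6J mice it had 0, 0, 0.429 and 519 CPM under HFHS diet and 0, 0, 0 and 3.45 CPM under SD (log2 fold change 9.54, SE 3.21, adjusted p = 0.847 with edgeR and 0.0013 with DESeq2). Pdk1 was at most 1.0 CPM in the 8 HFHS libraries and had 0, 0, 2.45 and 56.3 CPM in Balb/c SD and 1.74, 35.4, 76.7 and 83.2 CPM in C57Bl/6J SD libraries (-6.92, SE 2.85, adjusted p = 1 with edgeR and 0.0442 with DESeq2). Gapdh had 1735 to 2680 CPM in Balb/c HFHS and 1086 to 1722 CPM in Balb/c SD libraries, and 971 to 5098 CPM and 774 to 1888 CPM in C57Bl/6J mice, which overlapped (0.74, SE 0.34, adjusted p = 1). The third DESeq2 call was Eno3 (7.15, adjusted p = 0.0381), with 1.37 to 382 CPM in Balb/c HFHS and at most 0.0295 CPM in Balb/c SD libraries. In C57Bl/6J mice Eno3 overlapped, with 0, 0, 4.12 and 73.5 CPM under HFHS diet and 0, 0.237, 2.36 and 17.1 CPM under SD. These fitted values depend on the zeros, and the SD libraries of Balb/c mice also had few detected genes, as given above. Both libraries that stand apart are SD libraries. Without them edgeR again called 0 members and 0 of 6930 genes, and the DESeq2 calls were not tested.

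In rest brain Tconv 0% of 12287 genes were called and 0 of 33 members, with 3 members and 591 genes at an unadjusted p under 0.05 and 0 members by DESeq2 or limma-voom. The 3 members were Gapdh (-0.30, adjusted p = 0.945), Aldoa (-0.35, adjusted p = 0.982) and Myc (-0.52, adjusted p = 0.983). Of the members 28 of 33 had a negative log2 fold change, with a median of -0.16, and of all genes 6448 of 12287, with a median of -0.03. In rest brain Tregs 0% of 11711 genes were called and 0 of 32 tested members, with 2 members and 853 genes at an unadjusted p under 0.05, 1 member and 325 genes by DESeq2 and 0 members by limma-voom. Pfkm had 43.5, 30.9, 23.1 and 2.01 CPM in Balb/c HFHS, 0 and 0.448 CPM in Balb/c SD, 26.5, 18.1, 0 and 20.8 CPM in C57Bl/6J HFHS and at most 0.29 CPM in C57Bl/6J SD libraries (7.16, SE 2.08, adjusted p = 0.494 with edgeR and 2.4e-05 with DESeq2). All but 1 of the 8 HFHS libraries exceeded all 6 SD libraries. Detection moved with diet too, with 8483 to 9626 genes over 10 counts in the HFHS and 5438 to 8867 in the SD libraries, and its part was not tested. Ldha (0.46, adjusted p = 0.547) and Ldhb (-0.56, adjusted p = 0.96) had the next smallest p.

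Each strain alone gave no member past the threshold for diet in Tconv, in fits chosen after seeing the data. In Balb/c mice 0% of 10028 genes were called in the hypothalamus and 0% of 11003 in the rest brain, and in C57Bl/6J mice 0% of 9714 and 0% of 10958. In hypothalamic Tconv 1 member in each strain had an unadjusted p under 0.05, Pfkl (-0.71) in Balb/c and Slc2a1 (-1.33) in C57Bl/6J mice, each with an adjusted p of 1. In rest brain Tconv of Balb/c mice 10 of 32 tested members had an unadjusted p under 0.05, of 1373 genes, all with lower fitted levels under HFHS diet, and the median log2 fold change was -0.71 over the members and -0.06 over all genes.

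The smallest p among these belonged to Myc, which drives growth and glycolysis genes in activated T cells, with 57.4, 91.6 and 51.6 CPM in HFHS pools 47_25, 15_21 and 16_20 and 226, 168 and 156 CPM in SD pools 37_41, 32_36 and 42_46 (log2 fold change -1.26, SE 0.28, adjusted p = 0.0859). Eno1 (-0.81, adjusted p = 0.0987), Gapdh (-0.61, adjusted p = 0.124), Aldoa (-0.79, adjusted p = 0.124) and Pkm (-0.88, adjusted p = 0.158) followed. The others of the 10 were Txnip, Hif1a, Eno2, Gpi1 and Slc2a1. The C57Bl/6J fit had 2 of 31 tested members with an unadjusted p under 0.05, of 470 genes, and both fitted values were positive, Pkm (0.61) and Tpi1 (0.41), each with an adjusted p of 1. T cell markers were also lower in the Balb/c HFHS libraries, as given above.

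The interaction of strain and diet tested whether the strains responded alike. It called 0.610% of genes and 0 of 33 members with edgeR in rest brain Tconv, with 13 members and 1569 genes at an unadjusted p under 0.05, and 3 members and 668 genes called by DESeq2. The members nearest the threshold were Pkm (-1.41, adjusted p = 0.0528), Eno1 (-0.86, adjusted p = 0.0566) and Myc (-1.25, adjusted p = 0.0948). The DESeq2 calls were the same genes, with adjusted p of 0.00296, 0.00325 and 0.0294. In hypothalamic Tconv the interaction called 0% of genes and 0 of 32 members with edgeR, with 1 member and 493 genes at an unadjusted p under 0.05, and 0 members and 165 genes by DESeq2. In hypothalamic Tregs it called 0% and 0 of 26, with 3 members and 1295 genes at an unadjusted p under 0.05, and 3 members (Bpgm, Eno3 and Slc16a3) and 1328 genes by DESeq2. In rest brain Tregs it called 0% and 0 of 32, with 1 member and 662 genes at an unadjusted p under 0.05, and 0 members and 577 genes by DESeq2.

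**Figure D3:**
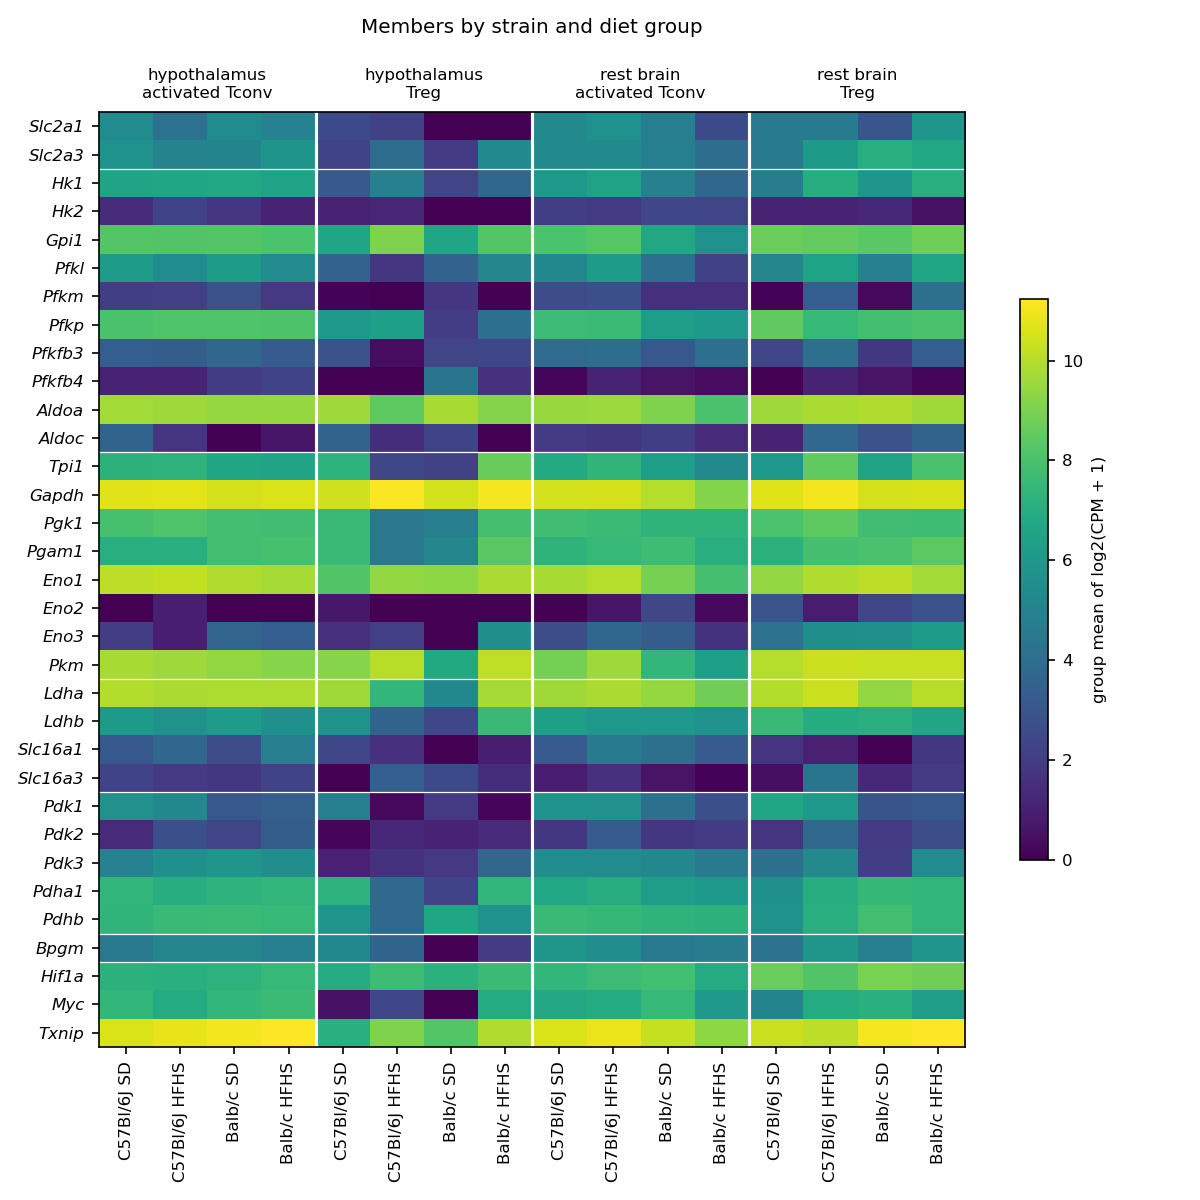
Group means of log2(CPM + 1) (colour) of the 33 genes (vertical axis, by role) in the 16 groups of strain and diet within each tissue and cell type (horizontal axis). Gapdh, Txnip, Eno1, Ldha, Aldoa and Pkm are high in most groups, and the Balb/c hypothalamic Treg columns are dark for Slc2a1, which had at most 0.0977 CPM in their 8 libraries.

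Further genes around glycolysis, 62 in 5 lists, were read from the same fits, so the shares of all genes given above for each comparison apply to them. For Tregs against Tconv in the rest brain, the list of hexose transporters and isozymes had 1 of 12 tested genes higher. That was Arrdc4 (2.07), which is neither a transporter nor an isozyme. The pentose phosphate pathway had 1 of 7 higher (Tkt, the transketolase, 2.33). Pyruvate entry into mitochondria had 1 lower (Mpc2, a pyruvate carrier subunit, -0.66). The hypoxia response had 1 of 16 higher (P4ha1, 2.06) and 1 lower (Higd1a, -0.82), and the NADH shuttles none. In the hypothalamus 3 of 10 tested hexose transporters and isozymes were lower (Slc2a9, -7.28; Pfkfb1, -9.28; Pfkfb2, -9.46) and 1 gene of pyruvate entry (Pcx, -6.51), and in the other lists none was called. For the tissues, Tconv had Tkt (1.59), Got1 (0.63) and Slc25a12 (0.64) higher and Vegfa (-4.16) lower in the hypothalamus, and Tregs had Slc2a9 (-6.07) and Pfkfb1 (-8.99) lower.

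For Balb/c against C57Bl/6J in rest brain Tconv, 3 of 7 genes of the pentose phosphate pathway, which branches off at glucose-6-phosphate, were lower, where 11.3% of all genes were lower and 12.2% higher: Pgd (-2.05), Tkt (-1.63) and Taldo1 (-0.38). Both subunits of the pyruvate carrier were higher (Mpc1, 0.80; Mpc2, 1.01). In the list of hexose transporters and isozymes, Arrdc4 (2.20), which is neither, was higher and Pgm2 (-1.19) lower. Of the NADH shuttles Mdh1 (0.68) was higher and Slc25a11 (-0.78) lower. Of the hypoxia response Higd1a (1.29) and Vegfa (5.02) were higher and Kdm3a (-0.92) lower. No gene of the 5 lists passed for strain in hypothalamic Tconv or in Tregs of either tissue, or for diet in any population, with edgeR.

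Promoter sequences, 250 bases before to 50 after a start that RefSeq lists on GRCm38.p6, were at hand for 31 of 33 members and not for Slc2a3 and Myc. Where several starts were listed for a gene, the first was used, and for Pfkp, Pfkfb4, Aldoa, Gapdh, Eno3, Ldha, Slc16a3, Pdhb and Hif1a that window lies wholly inside the annotated gene and not at its outer end. The windows were searched on both strands for CACGTG, the letters that MYC binds best, and for ACGTG and GCGTG, the core letters of hypoxia response elements. CACGTG contains ACGTG, so each CACGTG also gives an ACGTG match on either strand. Of the 31 member promoters CACGTG was in 5 (16.1%) and in 7.24% of 27025 promoters of that length, ACGTG in 15 (48.4%) and 19.7%, and GCGTG in 17 (54.8%) and 32.5%. The 5 were those of Ldha, with 2 copies, and Pfkm, Slc16a1, Pdk2 and Hif1a. A match is a description of letters and not a binding site. The promoters of Pkm, Gpi1 and Eno1 are shown because these genes differed together between strains in rest brain Tconv, and that of Ldha, which did not pass there, because it holds the most matches. Capitals mark these motifs on either strand. Pkm lies at chr9:59656326-59656625 (plus strand), Gpi1 at chr7:34230287-34230586 (minus strand), Eno1 at chr4:150236458-150236757 (plus strand) and Ldha at chr7:46845554-46845853 (plus strand).
Pkm: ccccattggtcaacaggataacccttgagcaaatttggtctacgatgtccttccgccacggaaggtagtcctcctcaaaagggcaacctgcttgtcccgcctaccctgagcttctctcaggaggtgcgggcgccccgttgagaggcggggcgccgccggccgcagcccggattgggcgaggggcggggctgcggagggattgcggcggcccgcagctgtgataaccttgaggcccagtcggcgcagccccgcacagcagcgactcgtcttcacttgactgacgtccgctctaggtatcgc
Gpi1: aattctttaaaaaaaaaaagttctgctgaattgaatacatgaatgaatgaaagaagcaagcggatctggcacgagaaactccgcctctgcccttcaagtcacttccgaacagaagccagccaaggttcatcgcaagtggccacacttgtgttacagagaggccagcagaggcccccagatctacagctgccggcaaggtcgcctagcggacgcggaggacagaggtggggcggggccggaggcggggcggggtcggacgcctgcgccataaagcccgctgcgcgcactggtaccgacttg
Eno1: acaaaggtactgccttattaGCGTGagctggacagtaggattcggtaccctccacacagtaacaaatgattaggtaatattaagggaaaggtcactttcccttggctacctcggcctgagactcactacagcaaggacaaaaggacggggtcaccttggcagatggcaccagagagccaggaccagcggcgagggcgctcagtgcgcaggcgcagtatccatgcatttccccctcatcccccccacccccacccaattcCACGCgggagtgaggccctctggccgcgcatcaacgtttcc
Ldha: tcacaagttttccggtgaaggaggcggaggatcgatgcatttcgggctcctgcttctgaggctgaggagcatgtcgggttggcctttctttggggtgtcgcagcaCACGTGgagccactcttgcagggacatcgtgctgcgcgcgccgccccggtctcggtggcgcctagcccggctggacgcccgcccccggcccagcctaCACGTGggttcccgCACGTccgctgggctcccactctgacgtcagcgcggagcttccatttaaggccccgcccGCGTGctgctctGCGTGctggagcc
The Pkm and Gpi1 windows hold none of the 3 motifs, Eno1 holds 2 GCGTG and Ldha 5 ACGTG matches, of which 4 lie in its 2 CACGTG, and 2 GCGTG.

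The pilot compared single libraries, so its folds have no test. Of its reads, 82.9% to 99.6% named no gene, and 0.391% to 17.1% were on genes. Total counts were 2173767 (Tconv HFHS), 3315451 (Tconv SD), 2029515 (Treg HFHS), 1234423 (Treg SD), 1727379 (ob/ob CD4+CD25-), 220336 (WT CD4+CD25-), 99925 (ob/ob CD4+CD25++) and 5334511 (WT CD4+CD25++). Here Tconv are the CD4+CD25-CD44low to intermediate cells. Gapdh, Eno1, Pgam1 and Pgk1, abundant in the larger experiment, had at most 21, 7, 14 and 56 counts in a pilot library, and the cause was not tested. The call needed a fold above 2 or below 0.5 and, in either library of a pair, more than 20 reads after normalization. For the calls, counts under 3 were raised to 3. Asking for more than 20 reads in both libraries left fewer members past the rule in every pair, as given under the processing. Intervals in brackets are 95% intervals that cover counting error only, and against 0 counts the limit of that interval is given, as at least or at most. The WT CD4+CD25++ library had 44383 CPM of microglial markers and 87.4 CPM of T cell markers, against its label. All pilot mice were labelled female, but the WT CD4+CD25- and ob/ob CD4+CD25++ libraries had no Xist count and 958 and 120 CPM of Y-linked genes, so the data went against the label there. Xist and the Y-linked genes were chosen after their values were seen.

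For HFHS diet against SD in pilot Tconv, 5 of 19 members with enough reads were higher and 9 lower, where 24.8% of 6686 genes were higher and 37% lower. Slc16a1 had 0 counts under HFHS diet and 253 under SD, so the ratio was at most 0.025. Myc had 22 and 370 counts, a ratio of 0.101 (0.0627 to 0.156), and Pdha1 66 and 1078, a ratio of 0.104. The highest folds were those of Pgk1, the phosphoglycerate kinase (56 and 15 counts, 6.36, 3.55 to 12.1), Bpgm (326 and 200, 2.78) and Hif1a (864 and 547, 2.69), where Pgk1 is among the 4 genes with few pilot counts. Slc2a3 (11 and 163 counts, 0.115) and Pdk1 (18 and 101, 0.304) were lower, Ldha (1998 and 1461, 2.33) higher and Txnip (3067 and 6050, 0.864) between the limits. Slc2a1 (0 and 51 counts), Hk2 (3 and 12) and Gapdh (11 and 21) had too few reads.

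In pilot Tregs 6 of 15 members with enough reads were higher under HFHS diet and 5 lower, where 48.2% of 5445 genes were higher and 32.3% lower. Pdha1 (311 and 0 counts), Pdk3 (200 and 0) and Pfkfb3 (188 and 0), the kinase and phosphatase that sets fructose-2,6-bisphosphate, were at least 69.8-fold, 44.7-fold and 42-fold higher. Pdhb had 6 and 353 counts, a ratio of 0.0141 (0.00516 to 0.0311), Aldoc 0 and 173 counts, so the ratio was at most 0.0179, and Hif1a 1 and 143 counts, a ratio of 0.00582 (0.000146 to 0.0330). Txnip was higher (4982 and 1617 counts, 2.56), while Slc2a3 (190 and 146, 1.08), Hk2 (29 and 36, 0.671) and Ldha (595 and 360, 1.38) lay between the limits. Slc2a1 (23 and 0 counts) and Gapdh (5 and 10) had too few reads, and Pdk1 and Myc had none.

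For ob/ob against WT CD4+CD25- cells, 9 of 17 members were higher and 3 lower, where 57.2% of 6440 genes were higher and 28.5% lower. Hif1a (629 and 0 counts), Pfkp (374 and 0) and Pdk1 (326 and 0) were at least 21.8-fold, 12.9-fold and 11.3-fold higher, and Slc2a1 (175 and 0) at least 6.02-fold. Hk2 (5 and 24 counts, 0.0267, 0.00796 to 0.0714), Pdk3 (12 and 28, 0.055) and Pkm (117 and 31, 0.484) were lower. Ldha (952 and 112, 1.09) and Txnip (1442 and 161, 1.15) lay between the limits, and Slc2a3 (16 and 0), Gapdh (2 and 0) and Myc (12 and 0) had too few reads. For CD4+CD25++ cells, 4 of 21 members were higher in ob/ob mice and 11 lower, where 23.8% of 5901 genes were higher and 55.0% lower, beside the microglial markers of the WT library. Slc2a3 (9 and 0 counts) and Eno3 (4 and 0) were at least 30.8-fold and 10.3-fold higher, and Ldha had 35 and 19 counts (28.8, 16.0 to 53.3). In this ob/ob library 3 counts made 23.8 reads after normalization, against 0.8 to 11.9 in the other pilot libraries. A few counts there were therefore enough to pass the limit of 20 reads. Aldoc (0 and 1773) and Pfkfb3 (0 and 424) had ratios of at most 0.0325 and 0.137, and Ldhb (1 and 596) a ratio of 0.0262 (0.000663 to 0.147). Hk2 (13 and 1277 counts, 0.159) and Txnip (23 and 2905, 0.124) were lower, Hif1a (0 and 123) had a ratio of at most 0.476 and Myc (22 and 222) of 1.55, and Slc2a1, Gapdh and Pdk1 had no counts.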

How the data were processed

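The data were mRNA-seq libraries of sorted brain T cells. For the larger experiment the deposited values were estimated counts and TPM per transcript, which the authors made with Salmon in nf-core/rnaseq from 100 bp paired-end reads (SMARTer mRNA, mouse mm10). For the pilot the deposited values were counts per gene symbol, which the authors made from 75 bp single-end reads with BWA-mem and HTSeq. Here estimated counts were summed per gene and rounded, and 34648 of 35034 transcript names (98.9%) matched a gene. CPM are plain shares of the library total. Genes with more than 10 counts in as many libraries as the smallest group were fitted in edgeR 4.0.16 (quasi-likelihood, TMM scaling, R 4.3.3), with Benjamini-Hochberg adjustment over all genes tested. DESeq2 1.42.0 and limma 3.58.1 (voom with sample weights) served as alternatives, with size factors of DESeq2 in edgeR, no filter, and each library left out. Python 3.11.15, numpy 2.4.6, pandas 2.3.3, scipy 1.17.1 and matplotlib 3.10.9 made the other values. Pilot counts were divided by median-ratio size factors over 786 genes with counts in all 8 libraries. The HTSeq summary lines, 82.9% to 99.6% of reads, stayed out of totals.

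The members, the marker lists and the lists of further genes were chosen with earlier results of these data known. Named with statistics were members past the threshold, with values per library or group for up to 8 with the largest fold change, and where none passed the 3 with the smallest p. Slc2a1, Slc2a3, Hk2, Gapdh, Ldha, Pdk1, Hif1a, Myc and Txnip were named by level. Of each further list up to 3 genes with the largest change past the threshold were named. In the pilot these were the 3 highest and 3 lowest folds past the rule beside the 9 genes. Other genes named for a level, for detection, for a call by another tool or in a strain alone, and Tmsb4x and Cst3, were chosen after their values were seen.

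The pool label names the same pooled mice, so cell types or tissues of 1 pool were paired by design in a fit with the pool as a block. After the group means were removed, libraries of 1 pool had median correlations of -0.01 to 0.01 over 10273 genes. For cell type and tissue, fits without that block measure the spread between libraries and treat libraries of 1 pool as independent. With the block, the p-values measure the spread within pools. For strain and diet within a population, they measure the spread between pools. No p-value measures the spread between single mice, and some pool numbers overlap. Replicates differed beyond counting error in all 82 pairs checked (chi-square per degree of freedom 75.8 to 4707). Intervals and floors cover counting error only. The scripts were tested on simulated data.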

Additional observations from a re-analysis of the deposited data

Results flagged for a closer look

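Single libraries lay far from the other 3 of their group for 19 of 120 groups of 4 values, all in CPM. Genes with at most 3 counts in every library of a group are among the 120 but were not tested. Chance alone flags about 1 in 20 groups of normal values. In 10 of the 19 the other 3 libraries had 0 to 0.429 CPM, so almost any count is flagged there and that rate does not apply. In hypothalamic Tconv these were Txnip in C57Bl/6J HFHS pool 77_80 (2728), Slc2a1 (53.9) and Slc2a3 (111) in Balb/c HFHS pool 26_31, and Myc in Balb/c HFHS pool 11_14 (291). In hypothalamic Tregs of Balb/c mice they were Slc2a3 in SD pool 06_10 (266), Pdk1 in SD pool 37_41 (56.3), and Ldha (621, the lowest) and Pdk1 (0.776) in HFHS pool 26_31. In hypothalamic Tregs of C57Bl/6J SD mice they were Slc2a1 (1094) and Myc (3.45) in pool 11_15, Slc2a3 in pool 62_66 (286) and Hk2 in pool 43_47 (14.5). In those of C57Bl/6J HFHS mice they were Slc2a1 (358) and Pdk1 (1.0) in pool 33_37 and Hk2 (28.3) and Myc (519) in pool 72_76. In rest brain Tregs they were Hk2 in Balb/c HFHS pool 15_21 (2.68) and Pdk1 (353) and Hif1a (375, the lowest) in C57Bl/6J SD pool 11_15. The hypothalamic Treg library of C57Bl/6J SD pool 11_15, with the highest Slc2a1, was the one with endothelial markers at 25842 CPM, and their part in that level was not tested.

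Differences that themselves differed between groups, each past the threshold in a test of the difference and on the log2 scale, were found for 14 values. The Treg to Tconv difference of Pkm differed between tissues (-1.55). Between strains the same difference differed in the hypothalamus for Slc2a1 (-13.29) and in the rest brain for Gpi1 (1.69), Aldoa (0.76), Eno1 (1.37), Pkm (2.12) and Txnip (1.49). The tissue difference in Tconv differed between strains for Hk1 (1.61), Gpi1 (1.64), Pfkl (2.28), Pfkp (1.30), Eno1 (0.85), Pkm (1.72) and Txnip (1.06). The strain tests of the rest brain share the 6 Balb/c Tconv libraries with low levels of most of these genes, so they are not independent of each other. All 14 values come from fits without the pool as a block.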

How the results depend on the processing

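No member called in the edgeR fit of a comparison changed direction there under any alternative. Of 1093 values of these members over all alternatives, 991 kept their side of the threshold and 102 lost it. Counts of called members moved most for Tregs against Tconv in the hypothalamus (1): 2 with DESeq2 (2659 genes in place of 1563), 2 with no filter (2143 genes; Txnip and Myc, with Pfkm lost), 19 with limma-voom (7468), 10 with the pool as a block (5543), 3 without the 2 libraries that stand apart (1999) and 2 in Balb/c mice alone (1437). In the rest brain the 10 members became 3 in C57Bl/6J mice alone (408 genes in place of 2190). For the tissues in Tconv the 12 members became 1 with the pool as a block (115 genes in place of 2233) and 0 in C57Bl/6J mice alone (1). For the tissues in Tregs the 1 member became 4 with DESeq2 (1848 genes in place of 706), 13 with limma-voom (4298), 0 with the pool as a block (0), 3 without the 2 libraries (1222), 2 with Balb/c libraries only (914) and 0 with C57Bl/6J libraries only (0). For strain, hypothalamic Tconv went from 2 to 5 with DESeq2 (542 genes in place of 228), hypothalamic Tregs from 0 to 1 with no filter (16 in place of 3), and rest brain Tregs from 0 to 1 with DESeq2 (300 in place of 35) and 2 with limma-voom (123). For diet, DESeq2 called 3 in hypothalamic (180 genes) and 1 in rest brain Tregs (325) in place of 0. For the interactions, cell type and tissue went from 1 to 3 with DESeq2 (1507 genes in place of 1399) and to 3 without the 2 libraries (1361), strain and diet from 0 to 3 with DESeq2 in hypothalamic Tregs (1328 in place of 0) and from 0 to 3 in rest brain Tconv (668 in place of 75), and strain and cell type in the hypothalamus from 1 to 0 without the 2 libraries (141 in place of 233). Each library was also left out in turn. For cell type this gave 0 to 4 members (1378 to 2148 genes) in the hypothalamus and 8 to 12 (1816 to 2408) in the rest brain. For tissue it gave 9 to 13 (1656 to 2406) in Tconv and 0 to 3 (406 to 1507) in Tregs. For strain it gave 1 to 2 (182 to 260) in hypothalamic and 10 to 12 (2449 to 2914) in rest brain Tconv. For strain in Tregs it gave 0 members (1 to 3 genes in the hypothalamus, 26 to 41 in the rest brain). For diet it gave 0 members (0 to 1 genes in hypothalamic Tregs, 0 elsewhere). DESeq2's size factors moved the median log2 fold change of all genes in hypothalamic Tregs from -0.28 to -0.16 for strain and from 0.19 to 0.03 for diet. The list level of hypothalamic Tregs minus Tconv was -1.57 with a pseudocount of 1, -2.60 with 0.1 and -0.66 with 10. That of hypothalamic minus rest brain Tregs was -1.70 and, with 0.1, -2.56, and that of Balb/c minus C57Bl/6J rest brain Tconv -0.84 and, from TPM, -1.10. In the pilot, more than 20 reads in both libraries left 8, 2, 1 and 5 members past the fold rule in place of 14, 11, 12 and 15. The share of all genes under that stricter rule is not given, so these counts have no background. The causes were not tested. No paired analysis was possible for strain and diet because their groups hold different mice, nor for the pilot because its values come from no test. Outside the pilot, levels under the 0.0780 to 1.74 CPM that a count of 0 allows cannot be told from 0.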
